A study of Saccharomyces cerevisiae with 2 samples.

Results

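The genes for the subunits of RNA polymerases I, II and III were followed in nascent transcription data from budding yeast, Saccharomyces cerevisiae. They were chosen by systematic name and not by any measured value, though with earlier results of these data known. All 31 names were found among the 6448 rows of the count table, and all 31 had at least 100 counts over both libraries. They comprise 7 genes specific to polymerase II, 5 whose products sit in all 3 enzymes, 7 specific to polymerase I, RPC40 and RPC19, whose products sit in polymerases I and III, and 10 specific to polymerase III.

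Transcription was measured by BioGRO-seq, in which permeabilised cells extend engaged transcripts with a biotin-labelled nucleotide and the labelled RNA is sequenced. There was 1 library from the wild type BY4741, a haploid MATa laboratory strain that needs added histidine, leucine, methionine and uracil, and 1 from a strain of the Euroscarf deletion collection that lacks XRN1. Both cultures were grown to an OD600 of 0.55 and treated with 0.5% sarkosyl. They ran on for 5 min at 30 °C after 10 min of RNase A trimming. XRN1 encodes the main cytoplasmic 5′ to 3′ exonuclease of mRNA, and the study asked how its loss affects transcription. The labels do not give the parent, the marker or the number of clones of the deletion strain. With 1 library per strain no test was possible, and every interval given is a 95% interval of counting error that leaves out the spread between cultures.

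Polymerase I makes the large ribosomal RNA precursor, polymerase II makes mRNA, and polymerase III makes tRNA and 5S rRNA. The enzymes share a common core. Each has its own pair of large catalytic subunits, a stalk of 2 subunits that binds the emerging RNA, and a small zinc-ribbon subunit. Polymerases I and III also carry built-in counterparts of the general factor TFIIF, and polymerase III has a further trimer related to TFIIE. All of these subunits are made from mRNA, so the genes of the 3 enzymes are themselves transcribed by polymerase II.

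The wild-type library held 64934493 counts and the other 46396400. The subunit genes took 484171 counts, or 0.746% (exact binomial interval 0.744% to 0.748%), in the wild type. In the deletion strain they took 328497 counts, or 0.708% (0.706% to 0.710%). The deleted gene XRN1 itself had 41954 counts in the wild-type library and 53 in the other. Ratios of the deletion strain to the wild type are given relative to the median gene, whose raw ratio was 0.701 among protein-coding genes of 100 or more counts. That gene is at 0 on the log2 scale, and a shift of the whole transcriptome would be invisible.

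The genes of polymerases I and III differed from those of polymerase II in the sequence upstream of their start codons. The PAC box takes its name from polymerases A and C, the older names of polymerases I and III. It is known in yeast from genes of ribosome production and is bound by the repressors Dot6 and Tod6. Its core, GATGAG, was sought on both strands in the 250 bases before the start codon. It was present in 16 of the 19 genes of polymerases I and III including RPC40 and RPC19 (84.2%) and in 0 of the 12 genes of polymerase II including the 5 shared by all enzymes. Over 6001 annotated protein-coding genes the share was 17.03%. Since the motif is named for polymerases I and III, its high share among their genes is not an independent finding. A match is a description of letters and does not show that a factor binds there.

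The following windows from 8 of the 16 genes, picked after they had been seen, show the core in its setting in both enzymes. Likeness of the bases around it was not measured over all 16. Each is 26 bases long, is read on the strand that carries GATGAG, and has 1 copy of the core in capitals.
RPA190: ctttttaagaGATGAGatgagatttg
RPA135: ataattaagaGATGAGatgagtctct
RPA49: tttttattgcGATGAGctgaaatttt
RPA34: aaattttatcGATGAGcattgaatag
RPC40: aaattattgcGATGAGttgaaagaaa
RPC19: attcacctgcGATGAGctggaaaaaa
RET1: gtaattgtgaGATGAGctgaaaattt
RPC82: ccttcaatgcGATGAGcttttgaaaa
In the RefSeq R64 genome these windows lie at chrXV:960810-960835 for RPA190 (minus strand), chrXVI:581285-581310 for RPA135 (plus), chrXIV:182723-182748 for RPA49 (minus), chrX:140317-140342 for RPA34 (plus), chrXVI:746903-746928 for RPC40 (minus), chrXIV:412634-412659 for RPC19 (plus), chrXV:733571-733596 for RET1 (minus) and chrXVI:919148-919173 for RPC82 (plus). All lie upstream of the coding sequence and outside the neighbouring reading frames.

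The genes for the large subunits of polymerase I, RPA190 and RPA135, carry 2 overlapping copies of the core. The longest stretch that their upstream windows share is 17 bases, which on each gene's own strand reads CTCATCTCATCTCTTAA. It begins 172 bases before the start codon of RPA190 and 109 bases before that of RPA135. The overlapping pair, GATGAGATGAG, was also found before RPC53 and in 1.23% of all windows. A GC before the core, GCGATGAG, was found in 6 of the 19 genes, which were RPA49, RPC40, RPC19, RPC82, RPC31 and RPC25, against 3.83% of all windows. The form with CT after the core, GATGAGCT, was picked after the windows had been seen and was present in RPA49, RPC19, RET1, RPC82, RPC53 and RPC37, against 2.73% of all windows. These longer forms were not among the motifs set beforehand. Each contains the core, so a comparison with all windows partly restates the share of the core itself. Of the 1022 windows with the core over all genes, 74 held the overlapping pair, 230 the GC form and 164 the CT form. Among the 16 genes with the core these numbers were 3, 6 and 6.

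**Figure D1:**
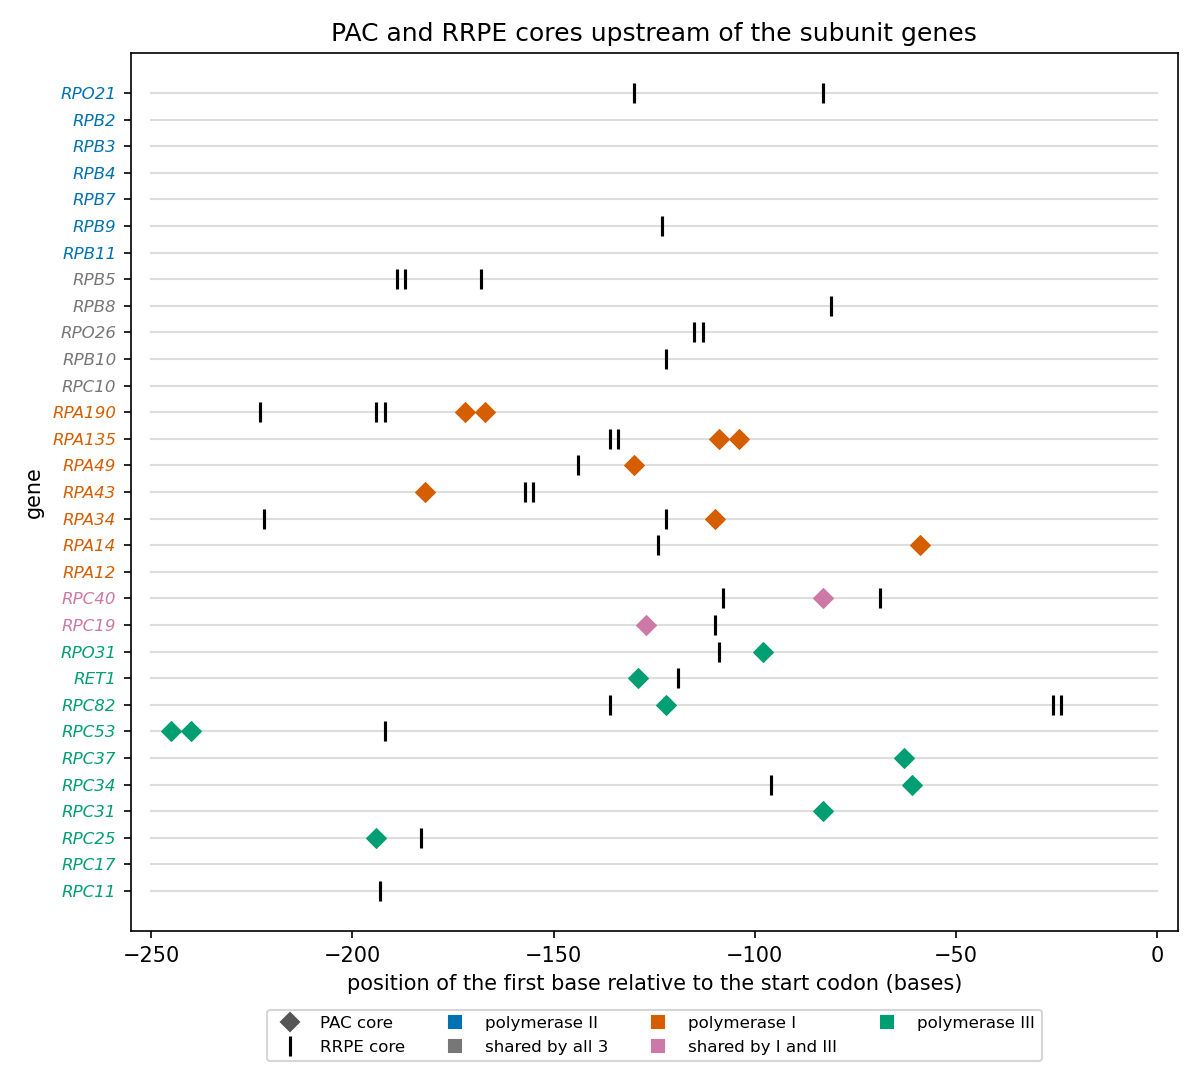
Position of each PAC core (diamonds) and RRPE core (black bars) in the 250 bases before the start codon of the 31 genes. There is 1 grey line per gene, and diamonds and gene names are coloured by enzyme. Diamonds stand on 16 of the 19 lines of polymerases I and III and on none of the 12 lines of polymerase II and the subunits shared by all 3.

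The ribosomal RNA processing element (RRPE), the other element known from ribosome production genes, followed the enzymes less closely. Its core was sought as AAAAATTT on both strands, and a run of 5 A and 5 T holds overlapping matches on both. It was found in 15 of the 19 genes of polymerases I and III and in 6 of the 12 of polymerase II, against 13.4% of all windows. The 6 were RPO21, RPB9, RPB5, RPO26, RPB8 and RPB10. PAC and RRPE cores stood together in 14 of the 19 windows of polymerases I and III. In the 12 of polymerase II the number was necessarily 0, since none has a PAC core. Over all genes both were present in 299 of 6001 windows. In the 14, the first bases of the nearest pair were 10 to 65 bases apart, a spacing not measured over all genes. The motif plot shows 17 of the 19 PAC cores between 50 and 200 bases before the start codon, with a median of 122. RPA12, RPC17 and RPC11 were the genes of polymerases I and III without a PAC core.

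The polymerase subunit genes stayed close to the median gene when XRN1 was deleted. A gene was called when its ratio reached 2-fold and its counting interval excluded 1. Of the 31, 0 were called higher, against 4.06% of the 5198 protein-coding genes that passed the count minimum, and 0 lower, against 1.52%. A narrower band was set at 25% above and 20% below the median gene, which are equal distances on the log2 scale. Above it was 1 subunit gene (3.23%, against 20.4% of all genes), and 3 were below it (9.68%, against 16.0%). The other 27 (87.1%) lay inside the band, as did 63.5% of all genes. Among the 4769 genes with at least 2000 counts, a minimum that every subunit gene passes and that was chosen after seeing the data, the share was 65.8%. The median log2 ratio of the 31 was −0.07, with 19 below the median gene (50.0% of all genes are below it by construction). The interquartile range ran from −0.14 to 0.09, against −0.22 to 0.26 over all genes.

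**Figure D2:**
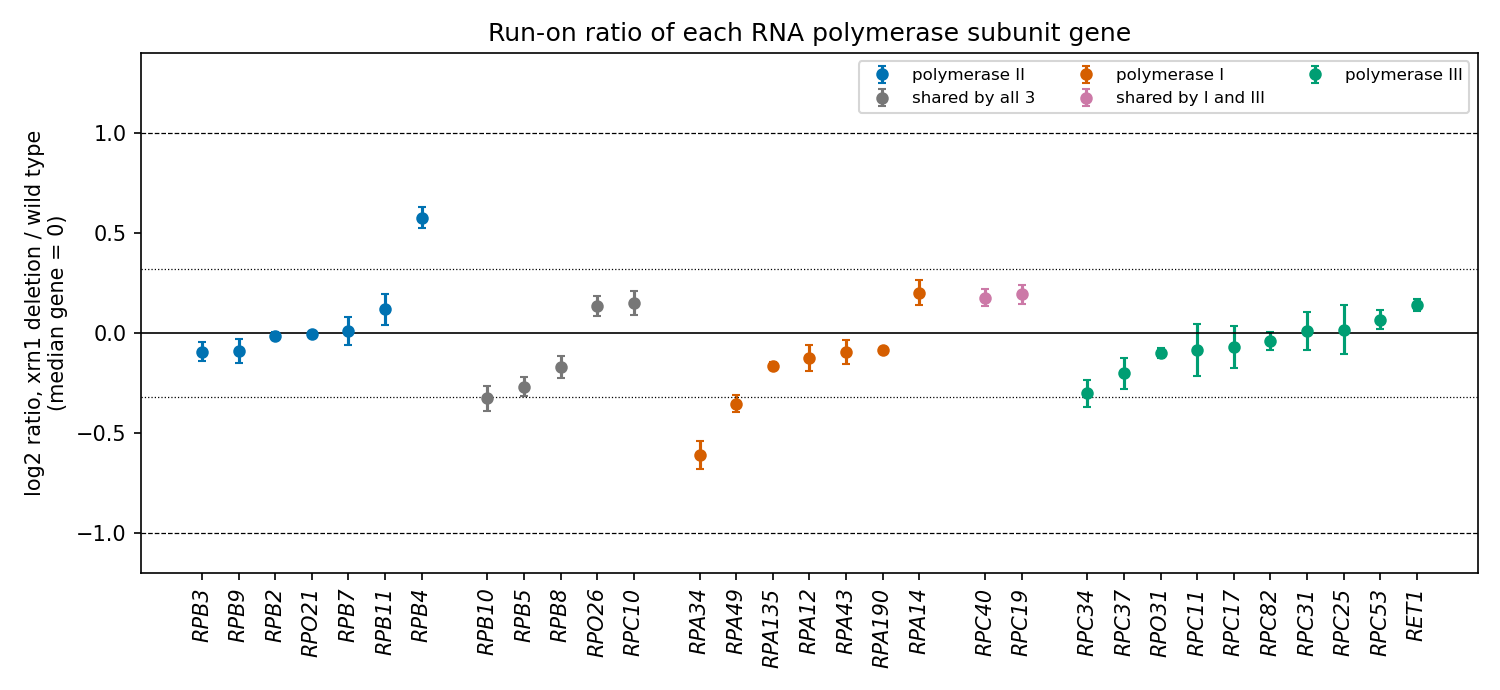
Log2 ratio of the deletion strain to the wild type for each subunit gene, grouped by enzyme, with bars for the 95% counting interval, dotted lines at 25% above and 20% below the median gene and dashed lines at 2-fold. RPB4 at 0.58 stands above the upper dotted line, RPA34 at −0.61, RPA49 at −0.35 and RPB10 at −0.33 lie below the lower one, and no gene reaches a dashed line.

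The genes of the large catalytic subunits, which together form the active site, carried most of the counts and had ratios near 1. RPO21, for the largest subunit of polymerase II, had 86299 wild-type counts and 60299 in the deletion strain, a ratio of 0.996 (0.986 to 1.007). RPB2, for its partner, had 55769 and 38682 counts and a ratio of 0.989 (0.976 to 1.002). Both intervals include 1, so the polymerase II pair could not be told apart from the median gene at this depth. After removal of loess trends on mean count and on GC content, however, RPO21 was at a log2 ratio of 0.06 and RPB2 at 0.11. The polymerase I pair was slightly lower before that removal, after which RPA190 was at 0.07 and RPA135 at −0.08. RPA190 had 85925 and 56722 counts and a ratio of 0.941 (0.931 to 0.951). RPA135 had 56128 and 35111 counts and a ratio of 0.892 (0.880 to 0.904). In polymerase III the pair split, with the largest subunit below and the second above the median gene. RPO31 had 32192 and 21093 counts and a ratio of 0.934 (0.918 to 0.951). RET1 had 22902 and 17687 counts and a ratio of 1.10 (1.08 to 1.12). The 6 log2 ratios spanned 0.30. After removal of the trends on mean count and GC content RPO31 was at −0.03 and RET1 at 0.26.

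The stalk subunits gave the highest ratio of all 31 genes. RPB4 (YJL140W, chromosome X, 150961 to 151626) encodes a stalk subunit of polymerase II that is dispensable for growth under standard conditions and has been linked in yeast to mRNA decay as well as to transcription. Its counts were 5362 and, in the smaller library of the deletion strain, 5611, so that it was 1.49-fold higher (1.44 to 1.55). It stood at percentile 89.6 of all protein-coding genes. RPB7, for the protein that pairs with Rpb4, had 3822 and 2699 counts and a ratio of 1.01 (0.958 to 1.06). The genes of this pair thus differed in ratio by more than counting error, while the spread between cultures was not measured.

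The counterparts of these stalk genes in the other enzymes lay nearer to 1. RPA14, the polymerase I gene in the place of RPB4, had 4653 and 3753 counts and a ratio of 1.15 (1.10 to 1.20). Its log2 ratio of 0.20 became −0.07 after removal of loess trends on mean count and on GC content, and its GC content was 51.0%, the highest of the 31. RPA14 overlaps the annotated frame YDR157W by a few bases, so some of its reads may belong there. RPC17, in the same place in polymerase III, had 1838 and 1227 counts and a ratio of 0.952 (0.885 to 1.02). Of the RPB7 counterparts, RPA43 had 5686 and 3733 counts and a ratio of 0.936 (0.898 to 0.976). RPC25 had 1309 and 928 counts and a ratio of 1.01 (0.928 to 1.10). RPB4 was therefore the exception among the 6 stalk genes, the other 5 lying between −0.10 and 0.20 on the log2 scale.

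The gene next to RPB4 had a larger ratio than RPB4 itself. YAK1 (YJL141C), for a protein kinase that acts against protein kinase A signalling and in stress and glucose starvation, lies upstream in the opposite direction, with 570 bases between the 2 coding sequences. Its counts were 6544 and 18728, a 4.08-fold higher ratio (3.97 to 4.20). YUR1, the downstream neighbour that points toward RPB4 at a distance of 86 bases, had 3596 and 2346 counts and a ratio of 0.930 (0.883 to 0.980). How strand was treated in the counting is not stated in the sources at hand, and the part of the neighbouring transcription in the RPB4 value was not tested.

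At the low end stood the polymerase I genes for the TFIIF-like pair. RPA34 and RPA49 encode the heterodimer of polymerase I that is related to TFIIF, supports elongation on ribosomal DNA and is dispensable for viability. RPA34 (YJL148W, chromosome X, 140437 to 141138) was counted 5353 and 2458 times and was 1.53-fold lower (1.46 to 1.60), at percentile 4.62 of all genes. RPA49 (YNL248C, chromosome XIV, 181361 to 182608) was counted 12540 and 6883 times and was 1.28-fold lower (1.24 to 1.32). They were the lowest and second lowest of the 31 genes, except that RPB10 at −0.41 and RPB5 at −0.35 lay just below RPA49 once the trend with coding length was removed. Under the other scalings, count minimums and trend removals, the log2 ratio of RPA34 lay between −0.69 and −0.54 and that of RPA49 between −0.38 and −0.33.

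The TFIIF-like pair of polymerase III did not share that place. RPC53 had 8005 and 5879 counts and a ratio of 1.05 (1.01 to 1.08). RPC37 had 3663 and 2234 counts and a ratio of 0.870 (0.825 to 0.917). The polymerase I pair was thus below both polymerase III genes, and the log2 ratios differed by 0.15 to 0.68 between them. After removal of the trends on mean count and GC content that order held, but RPC37 at −0.29 lay close to RPA49 at −0.33. RPC53 was then at −0.03.

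The neighbours of RPA34 and RPA49 differed from each other. The upstream neighbour of RPA34, DAS1, was at a log2 ratio of 0.30 and its downstream neighbour SMT1 at −0.11. RPA49 lies between CRS1, which diverges from it across 266 bases and was at −0.29, and MPA43, which follows on the same strand and was at −0.67. RPA34 was therefore lower than both genes beside it, whereas RPA49 lay between its neighbours' values.

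The small zinc-ribbon subunits, which in polymerases I and III take part in RNA cleavage and in polymerase II in start site choice and fidelity, had nearly equal ratios. RPB9 had 5573 and 3670 counts and a ratio of 0.939 (0.900 to 0.979). RPA12 had 5010 and 3223 counts and a ratio of 0.917 (0.877 to 0.959). RPC11 had 1212 and 802 counts and a ratio of 0.944 (0.862 to 1.03). The 3 intervals overlap, so no difference between them was detectable at this depth.

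Of the subunits of the assembly platform, related to the bacterial alpha subunit, those that serve polymerases I and III were slightly above the median gene. RPC40 had 9974 and 7901 counts and a ratio of 1.13 (1.10 to 1.16). RPC19 had 7866 and 6306 counts and a ratio of 1.14 (1.11 to 1.18). The values of these dimer partners lay within each other's intervals. In polymerase II their counterparts were RPB3, with 8758 and 5758 counts and a ratio of 0.937 (0.907 to 0.969), and RPB11, with 3043 and 2315 counts and a ratio of 1.08 (1.03 to 1.15). The interval of RPB11 overlapped those of RPC40 and RPC19, while that of RPB3 lay below both. RPB11, like RPA14, has a high GC content, 49.9%, and its log2 ratio of 0.12 became −0.13 after the same removal.

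The 5 genes for subunits of all 3 enzymes fell on either side of the median gene. RPB10, for a very small zinc-binding subunit, had 5658 and 3165 counts and a ratio of 0.798 (0.763 to 0.833), the third lowest of the 31 and just outside the band. Its GC content of 36.2% was the lowest of the 31, and its log2 ratio of −0.33 became −0.22, inside the band, after removal of the trends on mean count and GC content. It was also inside the band with the minimum of 2000 counts, at −0.32. RPB5 had 9952 and 5791 counts and a ratio of 0.830 (0.803 to 0.857). RPB8 had 6802 and 4236 counts and a ratio of 0.888 (0.854 to 0.923). The other two were above. RPO26, which contains an intron, had 7092 and 5464 counts and a ratio of 1.10 (1.06 to 1.14). RPC10, with the same coding length as RPB10 (213 bp), had 5070 and 3940 counts and a ratio of 1.11 (1.06 to 1.16). These equally short genes thus lay on opposite sides of the median gene. The neighbours of RPB10, NPT1 and MGM1, were at log2 ratios of 0.19 and −0.12, both above RPB10.

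The TFIIE-like trimer of polymerase III, which acts in promoter opening, held the lowest ratio of the 10 genes specific to that enzyme. RPC34 had 4686 and 2665 counts and a ratio of 0.811 (0.773 to 0.851). RPC82 had 9839 and 6715 counts and a ratio of 0.973 (0.943 to 1.004). RPC31 had 2190 and 1547 counts and a ratio of 1.01 (0.943 to 1.07). RPC34 lay below its partners by more than counting error, and the latter were not distinguishable from the median gene.

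Compared by enzyme, the median log2 ratios were close together. The 7 genes specific to polymerase II had a median of −0.01 (range −0.09 to 0.58), with 4 below the median gene. The 7 of polymerase I had a median of −0.12 (−0.61 to 0.20), with 6 below. The 10 of polymerase III had a median of −0.06 (−0.30 to 0.14), also with 6 below. The 5 shared by all enzymes had a median of −0.17 (−0.33 to 0.15). The ranges of the groups named so far overlap. RPC40 and RPC19, shared by polymerases I and III, had a median of 0.18 (0.18 to 0.19). Both lay above every gene specific to polymerase III and every gene shared by all enzymes. After removal of the trends on mean count and GC content they were at 0.19 and 0.15, and RET1 of polymerase III was higher, at 0.26. Differences between groups were not tested since genes are not replicates. RPA14 was the one polymerase I gene above the median gene. After removal of the trends on mean count and GC content RPA14 was at −0.07 and RPA190 at 0.07, and 8 of the 31 genes changed sign. Summed over all counts of a group, the log2 ratio was 0.01 for polymerase II, −0.14 for polymerase I and −0.02 for polymerase III. These sums mostly reflect the genes of the large catalytic subunits, which carried most of the counts.

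The levels of the genes differed more between enzymes than the ratios did, with polymerase III lowest in both strains. Levels are counts per kb of coding length, given relative to the median wild-type gene, with the deletion library scaled by the factor above. The 10 genes specific to polymerase III lay between 0.458 and 1.64 in the wild type, with a median of 1.03. The 7 of polymerase II lay between 1.66 and 3.71, with a median of 2.05, and the 7 of polymerase I between 1.30 and 3.85, with a median of 2.51. In the deletion strain the ranges were 0.463 to 1.64, 1.67 to 3.70 and 1.12 to 3.62. Polymerase III thus did not overlap polymerase II in either library, though only just, and overlapped polymerase I.

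Levels also differed between counterparts. The largest subunit genes RPO21 and RPA190 stood at wild-type levels of 3.71 and 3.85, and RPO31 at 1.64. The second largest, RPB2 and RPA135, stood at 3.39 and 3.48, and RET1 at 1.48. Both large subunit genes of polymerase III were therefore at 0.43 to 0.44 of the level of their counterparts. In the deletion strain the levels were 3.70, 3.62 and 1.53 for the largest, and 3.36, 3.10 and 1.64 for the second largest. RET1 over RPA135 moved from 0.427 to 0.527.

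In the zinc-ribbon and stalk places the polymerase III gene was again the lowest, while the order of the polymerase I and II genes varied. The zinc-ribbon genes RPB9 and RPA12 were at 3.38 and 2.96, and RPC11 at 0.814. The stalk gene RPB7 was at 1.66, RPA43 at 1.30 and RPC25, the lowest of the 31, at 0.458. In the other stalk place RPB4 was at 1.80 in wild-type cells and 2.69 without XRN1, while RPA14 was at 2.51 and 2.89 and RPC17 at 0.846 and 0.805. Of the TFIIF-like genes RPC37 was the lowest in both strains, at 0.965 in wild-type cells and 0.839 without XRN1. RPA49 was the highest in both, at 2.25 and 1.76. The order of the others changed, since RPC53 was at 1.41 and RPA34 at 1.71 in wild-type cells, but at 1.48 and 1.12 without XRN1.

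**Figure D3:**
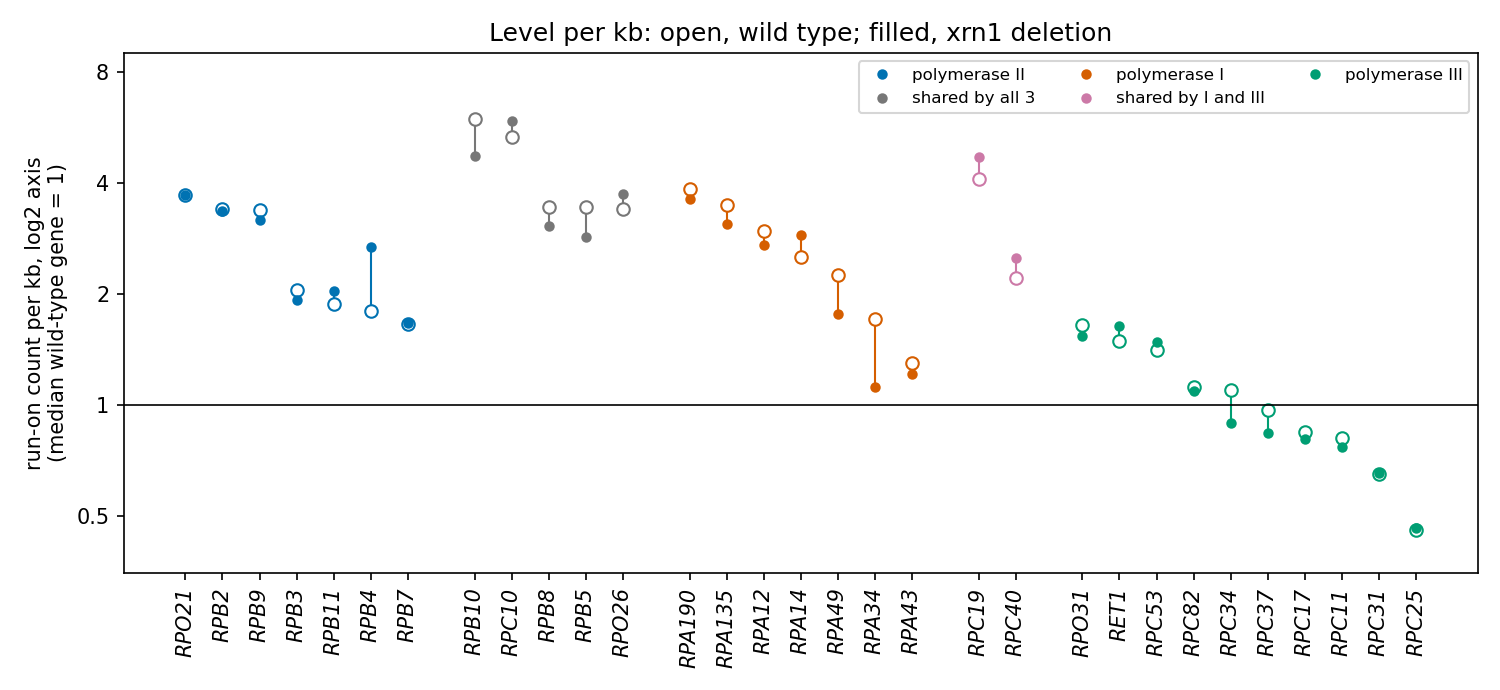
Run-on count per kb of each subunit gene on a log2 axis, relative to the median wild-type gene, with open circles for the wild type and filled circles for the xrn1 deletion strain. The genes specific to polymerase III lie between 0.458 and 1.64 in the wild type, and the gap between circles is widest for RPB4 and RPA34.

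Genes for shared subunits took the first 3 places in the wild type. RPB10 and RPC10 had the highest wild-type levels, 5.94 and 5.32, and RPC19 followed at 4.10. RPB8, RPB5 and RPO26 lay close together at 3.45, 3.44 and 3.39, among genes specific to 1 enzyme, and RPC40 was lower at 2.21. In the deletion strain RPC10 was first at 5.90 and RPB10 second at 4.74, so these neighbours in the order changed places. RPB10 and RPC10 are also the shortest of the 31 genes, and how read length and gene ends bear on counts per kb of such short genes was not tested. Over all 31 genes the levels spanned 13.0-fold in the wild type and 12.7-fold in the deletion strain, and RPC25, RPC31, RPC11 and RPC17 were the 4 lowest in both.

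Ratios were also set against coding length. The median of the log2 ratios was 0.01 for the 15 subunit genes under 700 bp and −0.09 for the 16 longer ones, against 0.09 for 1122 and −0.02 for 4055 of all genes. Across the 31 genes, which share both libraries, Pearson's r between log2 ratio and log2 coding length was −0.05 and Spearman's rho −0.11, against −0.12 and −0.14 over 5176 protein-coding genes. With GC content r was 0.33 over the 31 and 0.19 over all genes. These are descriptions across genes, which are not independent replicates.

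**Figure D4:**
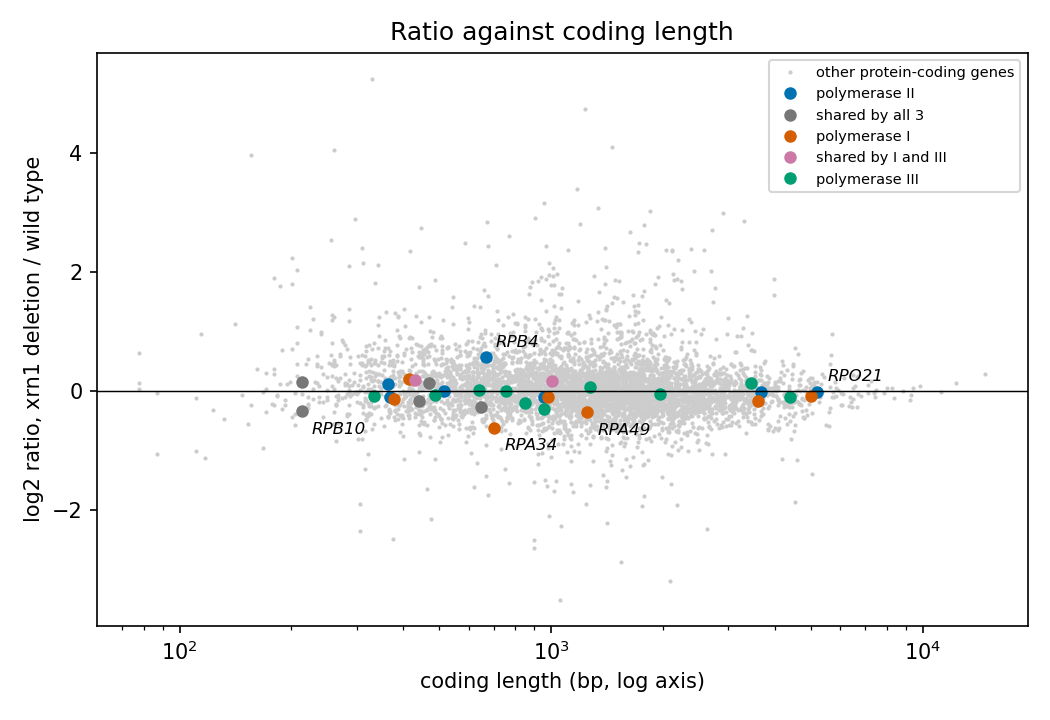
Log2 ratio against coding length on a log axis for the 31 subunit genes, coloured by enzyme, and other protein-coding genes with at least 100 counts in grey, leaving out the deleted XRN1 and 1 gene with no counts in the deletion strain. The subunit genes lie around 0 from the short RPB10 to the long RPO21, with RPB4 highest and RPA34 lowest.

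The presence of a PAC core did not separate the subunit genes by ratio. The 16 genes with it had a median log2 ratio of −0.06 (−0.61 to 0.20), and the 15 without it −0.07 (−0.33 to 0.58). Over all genes with at least 100 counts, the 866 with a PAC core had a median of −0.07 and the 4311 without it 0.01. For the RRPE core the medians were −0.09 in the 21 subunit genes with it and −0.00 in the 10 without it, and −0.10 and 0.02 over all genes. RPA34 and RPA14, the polymerase I genes with the lowest and the highest ratio, both carry PAC and RRPE cores. RPA190 and RPA43, which diverge from 1 intergenic region of 804 bases and each have a PAC core on their side, had closely similar log2 ratios, −0.09 and −0.10.

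Genes for factors that work with the polymerases or regulate them, and for polymerase assembly, also held no member past 2-fold in either direction. Over all genes 4.06% were called higher and 1.52% lower. The 9 polymerase I factors had a median log2 ratio of −0.07, with 1 above and 1 below the band, outside which lay 20.4% and 16.0% of all genes. HMO1, for a high mobility group protein of ribosomal DNA, had 16143 and 15150 counts and a ratio of 1.34 (1.31 to 1.37). RRN11, for a subunit of the core factor, was 1.55-fold lower (1.48 to 1.62), with 6224 and 2815 counts. RRN3, for the initiation factor that binds polymerase I, was at 0.10. HMO1 and RRN11 thus lay on opposite sides, as RPA14 and RPA34 did among the subunits.

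The 10 polymerase III factors had a median of −0.18, with 7 below the median gene. TFC3, for the largest subunit of TFIIIC, was 1.47-fold lower (1.43 to 1.51), with 15460 and 7375 counts. It was the only one outside the band, above which lay 20.4% of all genes and below which lay 16.0%. BDP1, for a TFIIIB subunit, was highest at 0.18.

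The 19 general factors of polymerase II had a median of 0.01, with 5 above the band and 0 below it, against 20.4% and 16.0% of all genes. TOA1, for the large subunit of TFIIA, was 1.79-fold higher (1.72 to 1.87), with 3740 and 4696 counts. SSL2, for the TFIIH translocase, was at 0.35 and TFG1, for the large TFIIF subunit, at 0.33. SPT15, for the TATA-binding protein that all 3 enzymes use, was lowest at −0.27.

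The 13 TFIID subunit genes TAF1 to TAF13 had a median of 0.15, with 11 above the median gene. Above the band was 1 of them, against 20.4% of all genes. The gene above the band was TAF13, with 1113 and 1157 counts and a ratio of 1.48 (1.36 to 1.61). TAF1 was at 0.01, TAF5 at 0.03 and TAF6, the lowest, at −0.11.

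The 12 genes of polymerase assembly and nuclear import had a median of 0.11, which became −0.04 after removal of the trends on mean count and GC content. IWR1, for a polymerase II import factor, was 1.48-fold higher (1.42 to 1.55), with 3716 and 3861 counts. RBA50, for a polymerase II assembly factor, was 1.33-fold lower (1.29 to 1.36), with 15873 and 8388 counts. RVB1, for a chaperone ATPase, was at −0.11. These lists were chosen with earlier results of the same data known, and nothing in their medians was tested.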

How the data were processed

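The deposited table holds, for each library, the raw count of reads in every open reading frame. Tools named in the submitters' processing notes are TopHat2 2.1.1, featureCounts, Subread, Trimmomatic and FastQC, with the builds sacCer3 and R64. Settings for strand and for reads with several matches are not given in the sources used here. Symbols, positions and sequence were taken from RefSeq R64, which matched 5831 of 6448 rows and all 31 subunit genes, on the same chromosomes.

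Ratios carry exact conditional (Clopper-Pearson) 95% intervals, which cover counting error only. A gene was called at 2-fold, or outside the band of 25% above to 20% below, when its interval excluded 1 and it had at least 100 counts. Levels use coding length without introns. The named genes are all 31 subunit genes, the neighbours of the 3 highest and 3 lowest where a result turns on them, and from each list the 2 most counted genes and the extremes of the ratio. The members and lists were chosen with earlier results of these data known. Alternatives were 4 scalings (edgeR 4.0.16 TMM and DESeq2 1.42.0 size factors among them), other count minimums, 5 added counts, overlapping genes left out and loess trend removal (span 0.3). The procedure was tested on simulated counts that held counting error only, so that test does not bear on the spread between cultures. Software was scipy 1.17.1, statsmodels 0.14.6, pandas 2.3.3 and numpy 2.4.6 under Python 3.11.15.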

Additional observations from a re-analysis of the deposited data

How the results depend on the processing

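No paired analysis was possible because there is a single library per strain, so that leaving one out is not possible either. Over all alternatives 0 subunit genes were called at 2-fold, 1 lay above the band of 25% above to 20% below the median gene, and 25 to 28 lay inside it. The number below the band was 3 as reported, 2 without the trends on mean count and GC content or with a minimum of 2000 counts, 4 with either total count as scaling and 5 without the trend with coding length. With a minimum of 2000 counts, an alternative chosen after seeing the data, 44 protein-coding genes were called lower at 2-fold instead of 79, over fewer genes tested. The median log2 ratio of polymerase I minus that of polymerase II lay between −0.16 and −0.11. The 4 other scalings shifted the median gene by −0.03 at most and changed the sign of RPB7 and RPC31, with RPC25 under the total counts. Removing the trends on mean count and GC content changed the sign of 8 genes, among them RPA14, RPB11 and RPA190, and moved a log2 ratio by 0.27 at most. The fewest counts were those of RPC11 and RPC25, and how far cultures of 1 strain vary was not measured.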

Other observations

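Of 60 annotated neighbours of the subunit genes with at least 100 counts, 36 (60.0%) lay inside the band of 25% above to 20% below the median gene, near the 63.5% of all genes. Besides YAK1, the neighbours past 2-fold are named because of their values. ATG40, for a receptor of endoplasmic reticulum autophagy, lies 846 bases upstream of RPB2 on the same strand and was 2.90-fold lower (2.67 to 3.15), with 3054 and 739 counts, whereas RPB2 was at a log2 ratio of −0.02. RPC34 lies between ATO2, which was 2.16-fold higher (1.93 to 2.42), and SWM2, which was 2.03-fold lower (1.78 to 2.31). UBC11, downstream of RPA43, was 2.01-fold higher (1.60 to 2.53) on only 132 and 186 counts.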
